A study of Neurospora crassa with 12 samples.

Results

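The mating-type A locus of the filamentous fungus Neurospora crassa carries 3 genes, matA-1 (NCU01958), matA-2 (NCU01959) and matA-3 (NCU01960). In the merged RNA-seq annotation their models had unlike sources. At matA-1 both transcripts had StringTie as their source, whereas matA-2 and matA-3 were carried over unchanged from the reference annotation. Downstream of matA-1, on its own strand, lay an unannotated spliced transcript unit, MSTRG.617, with 3 transcript forms. The genes were chosen by locus tag, with the source of their models in this file already known from earlier results. To them were added the transcripts without a reference gene that overlap the genes or lie within 2 kb on either strand. This gave 3 of 9730 annotated genes with 4 annotated transcripts, and 4 of the 10690 unannotated transcripts, or 8 of 21475 transcripts in all.

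Mating type in Neurospora is set by a single locus whose alternative forms, A and a, are dissimilar in sequence and are called idiomorphs. A haploid strain carries one or the other, and strains of unlike mating type can cross. In the A idiomorph, matA-1 encodes an alpha-box transcription factor that gives mating identity and acts in vegetative incompatibility between strains of unlike mating type. Both other genes act after fertilisation, and matA-3 encodes a protein with an HMG-box DNA-binding domain.

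RNA came from mycelia of 3 strains, WT, Δset-1 (also Δkmt2, without the H3K4 methyltransferase) and Δdim-5 (also Δkmt1, without the H3K9 methyltransferase). The cultures were vegetative and, as the study describes, had 24 h of growth in light before 24 h of constant darkness. They were harvested at the end of the darkness (DD24) or with a final 30 min of light (LP30). Each of the 6 groups had 2 replicates. Per the study's methods, the deletion strains were backcrossed to the WT strain. The labels do not give the mating type of any strain, and a culture of mating type a would hold no copy of these 3 genes. The deposited file pools all 12 libraries into 1 annotation of positions, strands and exons. It holds no expression value, so read coverage at each gene is unknown and no library or group can be compared with another. The shares below describe this annotation without a test.

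The 3 genes occupied 5001 bp of chromosome I, from 1857194 to 1862194 (genome build NC12). The matA-3 gene lay on the minus strand at 1857194 to 1858469, matA-2 on the plus strand at 1859093 to 1860424, and matA-1 on the plus strand at 1860692 to 1862194. All 3 had the same start and end in the RefSeq gene table of NC12. They were short genes, with spans of 1276 bp for matA-3, 1332 bp for matA-2 and 1503 bp for matA-1. Shorter spans were found for 19.2%, 20.8% and 26.6% of annotated genes, respectively.

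**Figure D1:**
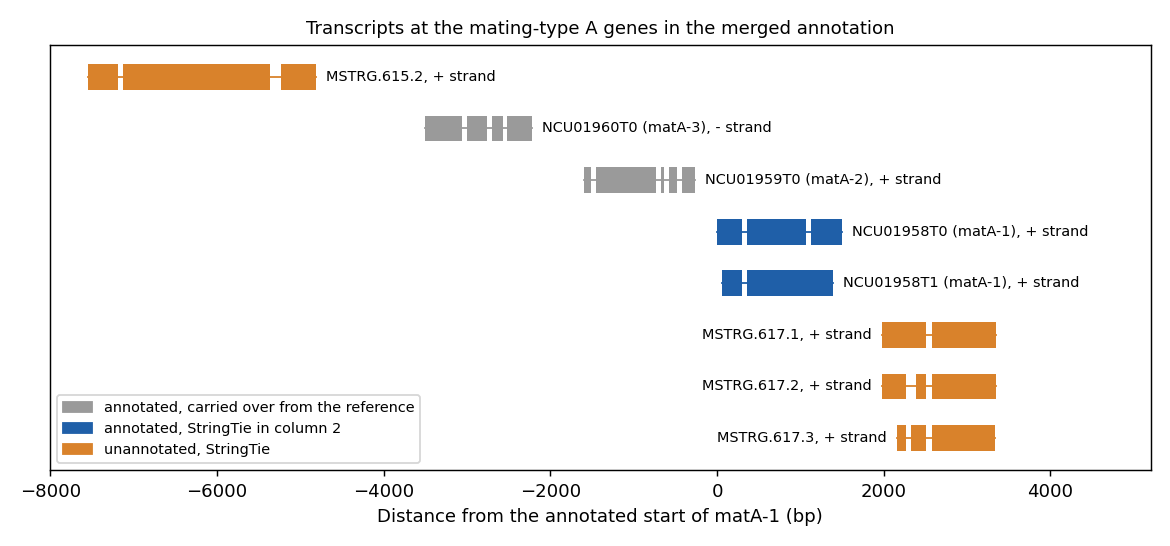
Map of the 8 transcripts at the mating-type A genes, by distance in bp from the annotated start of matA-1, with exons as boxes and introns as lines. The matA-2 and matA-3 models (grey) were carried over from the reference, the 2 matA-1 models (blue) have StringTie as their source, and the 4 unannotated transcripts (orange) are MSTRG.615.2 on the left and the 3 forms of MSTRG.617, which start 477 bp or more past the end of matA-1.

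The source of each model, given in column 2 of the file, differed between the members. For both matA-1 transcripts it was StringTie, in assembly gene MSTRG.616. For the single transcripts of matA-2 and matA-3 it was the reference gene set, named NC12_CALLGENES_FINAL_7. No StringTie transcript overlapped matA-2 or matA-3 on either strand. Over all annotated genes, 824 were carried over in this way, or 8.47%, and all 824 lacked a StringTie transcript on either strand. Since the source of the models was known when the genes were chosen, nothing is read from 2 of 3 members against this share. A carried-over model means that the merge kept no assembled transcript there, and does not show that the RNA was absent. For matA-1, the label does not tell whether the first, the second or both annotated models were assembled from reads, or in which strain or condition.

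Carried-over genes were shorter as a group than the others, with a median span of 1116 bp against 2234 bp. The matA-2 and matA-3 spans lay between these medians, and so did that of matA-1, which was not carried over. Of the 824 carried-over genes, 480 (58.3%) had another one as a direct neighbour, in 136 runs. The matA-2 and matA-3 pair was 1 of the 78 runs of exactly 2 genes. It was also 1 of 63 divergent neighbour pairs in which both genes were carried over, 2.35% of the 2682 divergent pairs in the annotation. The 5 annotated genes on each side of the locus, from cyt-20 (NCU01965) to eat-3 (NCU01953), all had StringTie as their source, 10 of 10. With 8.47% of all annotated genes carried over, a set of this size would hold few such genes.

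The matA-1 gene had 2 annotated transcripts, and 9.23% of annotated genes had 2 or more. NCU01958T0 had 3 exons of 305, 699 and 380 bp (1384 nt in all) and introns of 59 and 60 bp. NCU01958T1 had 2 exons of 250 and 1033 bp (1283 nt in all). The models shared the first intron, at 1860997 to 1861055. The second intron of NCU01958T0, at 1861755 to 1861814, lay wholly inside the second exon of NCU01958T1. A transcript of this second form thus keeps as exon the 60 bp that the first form splices out. Such a pair, in which an exon of one annotated transcript spans an intron of another, was found in 61.7% of the 898 genes with 2 or more annotated transcripts. NCU01958T1 also started 55 bp later and ended 106 bp earlier than NCU01958T0. Both are reference models, and the assembly added no unannotated isoform to them. An unannotated isoform was present at 36.4% of annotated genes.

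The matA-2 model, NCU01959T0, had 5 exons of 90, 720, 45, 102 and 150 bp (1107 nt in all) and introns of 57, 56, 54 and 58 bp. The 45 bp exon, at 1860016 to 1860060 was short for an internal exon, with 8.01% of the 9715 annotated internal exons shorter. The matA-3 model, NCU01960T0, had 4 exons, which in the direction of transcription were 293, 131, 246 and 443 bp (1113 nt in all). Its introns were 55, 53 and 55 bp. More exons than the annotated median of 3 were thus packed into transcripts shorter than the annotated median of 1986 nt. Since no assembled transcript overlapped either gene, these exon borders were not re-derived from the libraries.

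Introns of the 3 genes were uniformly short. The 9 distinct introns ran from 53 to 60 bp with a median of 56 bp, against a median of 76 bp (quartiles 62 and 117 bp) over 17854 annotated introns. Every one of the 9 lay under the lower quartile, and 19.8% of annotated introns were at most 60 bp long. All introns were at most 60 bp in 151 of the 4805 annotated genes with 2 or more introns (3.14%). The limit of 60 bp equals the longest intron of matA-1, matA-2 and matA-3. Their place among the 151 was thus fixed in advance, and nothing is read from it. They were shortest in matA-3 (53 to 55 bp) and longest in matA-1 (59 and 60 bp), and those of matA-2 (54 to 58 bp) overlapped only the former. These are reference models and no test was made.

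**Figure D2:**
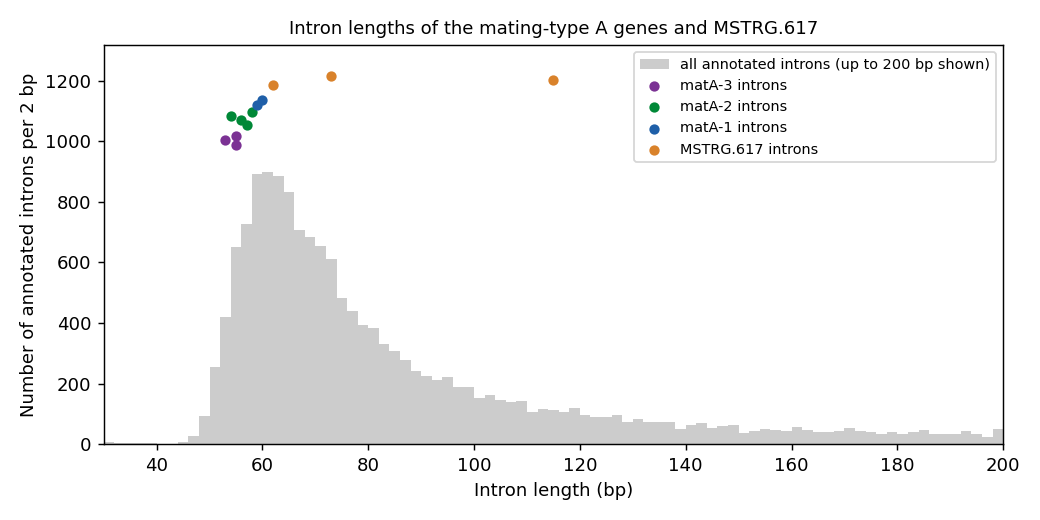
Intron lengths in bp of the 3 genes and of MSTRG.617 (points, 1 per distinct intron, height for separation only) over the histogram of all annotated introns up to 200 bp long. All 9 introns of the mating-type genes lie between 53 and 60 bp, whereas the MSTRG.617 introns are 62, 73 and 115 bp.

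MSTRG.617 lay in the gap between matA-1 and NCU01957, on the plus strand like matA-1. It spanned 1369 bp at 1862672 to 1864040 and took up 40.2% of the 3402 bp gap. Its start was 477 bp past the annotated end of matA-1, and its end was 1556 bp from NCU01957, which is transcribed toward it. No transcript in the file joined MSTRG.617 to matA-1. Intergenic here means that a transcript touched no annotated gene on either strand.

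All 3 forms of MSTRG.617 shared the intron at 1863199 to 1863271 (73 bp) and differed upstream of it. MSTRG.617.1 had 2 exons of 527 and 769 bp (1296 nt in all), with no further intron. MSTRG.617.2 had the same ends and a further intron of 115 bp at 1862958 to 1863072, which left 3 exons of 286, 126 and 769 bp (1181 nt in all). MSTRG.617.3 had 3 exons of 107, 179 and 753 bp (1039 nt in all) and in that place an intron of 62 bp, at 1862958 to 1863019. The introns of both these forms began at the same base and ended 53 bp apart, so they shared the upstream splice position and differed in the downstream one. Of the 3 distinct introns, those of 73 and 115 bp lay within the quartiles of introns in intergenic transcripts (66 and 160 bp, n = 767), with the 62 bp intron below them. MSTRG.617.1 kept the whole stretch as exon. MSTRG.617.3 also started 179 bp later and ended 16 bp earlier than the other forms.

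Each form of the unit was spliced and longer than the median intergenic transcript, but only MSTRG.617.1 passed the upper quartile of exonic length (1213 nt). The median exonic length of the 2834 intergenic transcripts was 631 nt. Of these transcripts, 77.2% were shorter than MSTRG.617.1, 73.9% shorter than MSTRG.617.2 and 69.5% shorter than MSTRG.617.3. Only 23.3% of intergenic transcripts had 2 or more exons and 6.6% had 3 or more. Of the 2490 assembly genes made up of intergenic transcripts alone, 93.2% held a single transcript and 41 (1.65%) held 3 or more, as MSTRG.617 did. The strand is as the file gives it. Splice-site bases and coding potential were not examined here, so whether MSTRG.617 encodes a protein was not tested.

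With this unit, matA-1 was the member with intergenic transcripts within 2 kb, all 3 of them forms of MSTRG.617. An intergenic transcript within 2 kb was found at 29.1% of annotated genes. On the gene's own strand, downstream and with no other gene in between, it was found at 5.72%. In these 557 genes the median distance was 573 bp, and 43.8% had a closer downstream transcript than the 477 bp at matA-1. The spacing was therefore ordinary for a downstream transcript of this kind.

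The fourth unannotated transcript was on the other side of the locus. MSTRG.615.2 (1853146 to 1855885, plus strand, 3 exons, 2551 nt) was an isoform of the neighbour NCU01961 and ended 1308 bp from the 3′ end of matA-3. It spanned the first intron of NCU01961T1 (61 bp) and ran 6 bp further at the 3′ end. Within 2 kb it was the farthest transcript from a member. The nearest one beyond that distance was MSTRG.619.1, 3616 bp from matA-1, which had 1 exon of 567 nt and was antisense to NCU01957.

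None of the 3 genes had an antisense transcript, which 21.2% of annotated genes had. For matA-2 and matA-3 this follows from their being carried over, since no carried-over gene had a StringTie transcript on either strand. Among genes with StringTie as their source, as at matA-1, the share was 23.2%. No StringTie transcript lay on the minus strand anywhere within 2 kb of the locus. Minus-strand assembly stopped at eat-5 (NCU01962) on the left and resumed at NCU01957 on the right, a stretch of 12824 bp from 1852773 to 1865596. Of the 6468 such stretches on the minus strand, 95.3% were shorter. The only minus-strand member, matA-3, lay inside it. On the plus strand the stretch without a StringTie transcript ran for 4806 bp, from 1855886 to 1860691, and held matA-2. Of the 6629 plus-strand stretches, 77.8% were shorter and 1472 were longer. The source of matA-2 and matA-3 was known when the genes were chosen, so nothing is read from these ranks.

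Gaps beside the genes also differed. From the matA-3 to the matA-2 start, which are transcribed away from each other, the gap was 623 bp, and 44.4% of divergent gaps were shorter. Between matA-2 and matA-1, on the same strand, it was 267 bp, with 18.1% of same-strand gaps shorter. The outer gaps were both convergent, at 1314 bp from NCU01961 to matA-3 and 3402 bp from matA-1 to NCU01957. Shorter convergent gaps made up 81.3% and 94.9%, respectively. Over gaps of every orientation the shares shorter were 49.4% for the 623 bp gap, 29.3% for the 267 bp gap, 69.8% for the 1314 bp gap and 90.6% for the 3402 bp gap. The gap from matA-3 to matA-2 was therefore of ordinary length, and the one beyond matA-1 lay farthest from the middle.

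**Figure D3:**
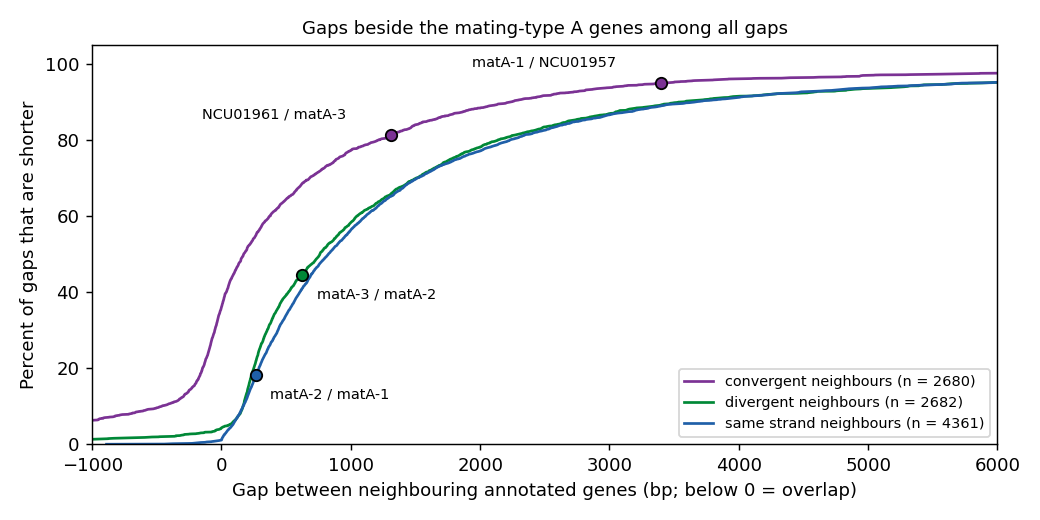
Gaps between neighbouring annotated genes in bp (below 0 where genes overlap), as the cumulative percent of gaps that are shorter for convergent, divergent and same-strand neighbours; points mark the 4 gaps beside the mating-type A genes. The outer gaps of 1314 and 3402 bp lie high on the convergent curve, and the inner gaps of 623 and 267 bp lie below the middle of theirs.

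The pathway that mating type controls was examined through a list of 17 genes chosen for their roles. None of the 17 was carried over from the reference, beside 8.47% of all annotated genes, so a list of this size would hold few such genes at that share. Their counts describe the list, beside the share over all annotated genes. An unannotated isoform was present at 8 of 17 (47.1%, against 36.4%), an antisense transcript at 3 (17.6%, against 21.2%) and an intergenic transcript within 2 kb at 10 (58.8%, against 29.1%). No unannotated transcript of any of these kinds was found at 4 of the 17, namely ccg-4, gnb-1, gng-1 and asd-1.

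Pheromone genes differed from each other. The ccg-4 gene, which encodes the pheromone precursor of mating type A, had its single annotated transcript and nothing else. At mfa-1 (NCU16992, chromosome V, minus strand), the pheromone precursor gene of mating type a, there were 4 unannotated isoforms. They passed the annotated 5′ end of mfa-1 by 1671 to 1720 bp, and all 4 also shared exon with the upstream gene NCU01258. These are thus transcripts that join both genes, and the StringTie source of mfa-1 does not by itself show an assembled transcript of mfa-1 alone. An antisense transcript of 238 nt, MSTRG.9450.1, lay inside mfa-1 (3396685 to 3396922).

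Of the pheromone receptor genes, pre-1, which is used by mating type A, had 1 isoform that began 46 bp upstream of its annotated start. The other, pre-2, had an intergenic transcript on its own strand only 14 bp downstream, MSTRG.13054.1 with 1 exon and 235 nt. It was 1 gene of the 17 (5.88%) with a same-strand downstream transcript, close to the 5.72% of all annotated genes. Unlike the MSTRG.617 forms, this transcript had no intron. Among the G protein subunit genes that couple to these receptors, gna-1 had 1 isoform with the annotated ends, and gnb-1 and gng-1 had none.

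In the MAP kinase cascade below the receptors, the MAP kinase gene mak-2 had 3 isoforms, the MAP kinase kinase gene mek-2 had 2 and nrc-1, the kinase at the head of the cascade, had 1. NCU00455, listed with the cascade and given the symbol ty-1 by RefSeq, had 0 isoforms. It had 1 intergenic transcript within 2 kb, as did nrc-1 and mek-2, whereas mak-2 had 0. The same count of 1 was found at mfa-1, pre-1, gna-1 and NCU07430. A head-to-head antisense transcript, MSTRG.12659.1, overlapped the 5′ end of mak-2 by 171 bp. The pp-1 gene, whose product is the Ste12-type transcription factor of the pathway, had no isoform and no antisense transcript, but 2 intergenic transcripts within 2 kb. At fmf-1 (NCU09387, chromosome I), which is needed for fertility of both mating partners, 2 antisense transcripts ran across the whole gene. The longer, MSTRG.1236.1 at 3499586 to 3505605, covered all 1845 nt of its annotated exon sequence. NCU07430, which carries no symbol in the RefSeq table, had 3 isoforms that began 235 to 359 bp upstream of its annotated start. The tol gene, which acts with mating type in vegetative incompatibility, had 1 unspliced isoform of 3785 nt. The incompatibility regulator gene vib-1 had 3 intergenic transcripts within 2 kb and no isoform.

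**Figure D4:**
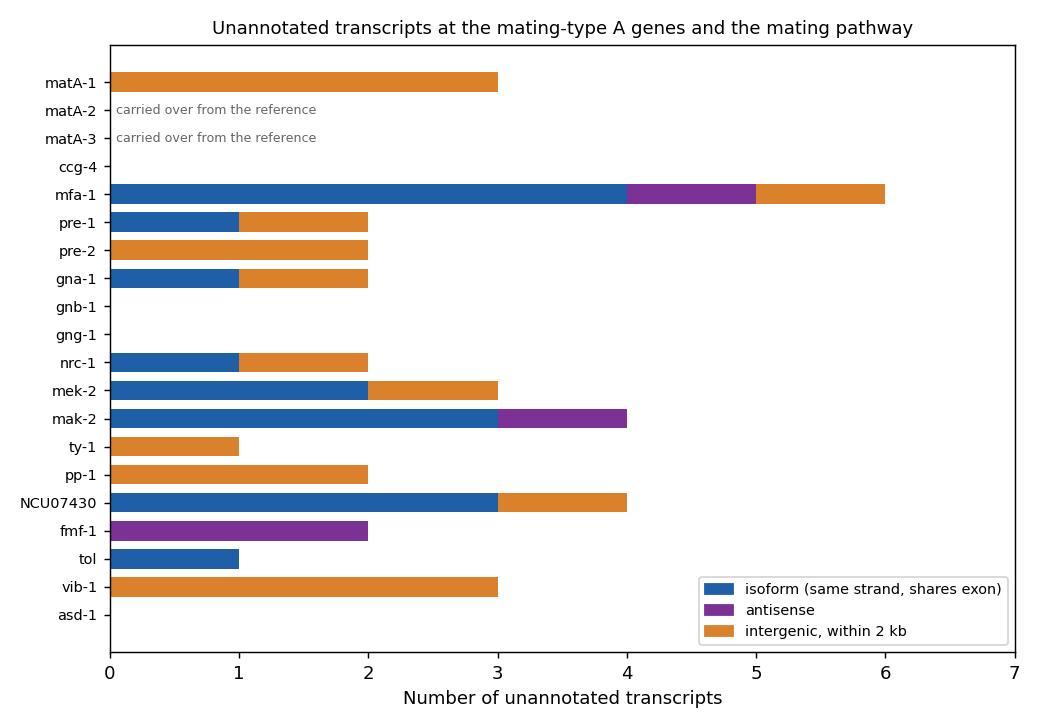
Number of unannotated transcripts at each mating-type A gene and each of the 17 pathway genes, as bars stacked by class (isoform, antisense, intergenic within 2 kb). The matA-1 bar holds the 3 intergenic forms of MSTRG.617, matA-2 and matA-3 have none, and mfa-1 has the most, 6.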

How the data were processed

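Per the labels, ribosomal RNA was depleted from total RNA of 12 libraries, and paired ends were read. The study states that library preparation kept the strand. The authors mapped reads to NC12 with HISAT2 2.1.0, assembled each sample with StringTie 1.3.3b and merged the assemblies with the NC12 annotation. The score column of the deposited file is a constant or a dot, is no expression level, and was used for nothing. The submitters' notes also name Cuffdiff, whose values were not used here.

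Unannotated transcripts were called isoforms where 1 bp or more of their exons coincided with a same-strand annotated exon, antisense where such overlap was found only on the other strand, and intergenic where their span touched no annotated gene. Distances count the bases between spans. Percentages "shorter" are shares of all values strictly lower. Symbols and chromosome names came from the RefSeq table of NC12, which held 9729 of 9730 genes. The members and the pathway list were chosen with earlier results of these data known, so nothing was tested. Named genes are the members, 5 neighbours per side, unannotated transcripts within 2 kb, and the list. NCU01258, MSTRG.619.1 and MSTRG.620.1 fall outside this rule and were named after their values were seen. The code was checked on planted transcripts. Python 3.11.15, numpy 2.4.6 and matplotlib 3.10.9 were used.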

Additional observations from a re-analysis of the deposited data

How the results depend on the processing

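The count of 4 unannotated transcripts at the mating-type A genes was 2 with a window of 500 bp, which leaves MSTRG.617.1 and MSTRG.617.2, and 2 when assembly genes were counted in place of transcripts. It was 3 at 1000 bp and 5 at 5000 bp. Of the 23 alternatives, the other 21, among them a length of at least 200 nt, an overlap of 100 bp and overlap of whole spans, gave values within 1.5 times those reported. No paired analysis was possible because the file pools all libraries, and for the same reason no replicate could be left out. Read coverage at each gene is unknown, so a gene without an assembled transcript is not shown to be silent.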

Other observations

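A single stretch without any StringTie transcript on either strand held both matA-2 and matA-3. It ran for 4806 bp, from the end of MSTRG.615.2 (1855886) to the base before matA-1 (1860691). Of 8946 such stretches in the annotation, 95.1% were shorter. It was 1 of 132 stretches that held 2 or more whole annotated genes, whose median length was 8886 bp, and 110 of these were longer. The source of both genes was known when they were chosen, so nothing is read from the rank of this stretch.

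Farther out on the left, the eat-5 and eat-6 genes overlapped by 275 bp at their 3′ ends, and eat-6 had 3 unannotated isoforms with its annotated ends. On the right, MSTRG.619.1 lay inside NCU01957 on the opposite strand, with 567 bp of overlap. The next unannotated transcript, MSTRG.620.1 (1867766 to 1868325, minus strand, 1 exon, 560 nt), lay between NCU01957 and eat-2.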
